A study of Mus musculus with 6 samples.

Results

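Ocular surface mucins and goblet cell genes were followed in corneas of Pax6 mutant and wildtype mice through 10 genes chosen by symbol, of 55421 genes in the count files. They were the membrane mucins Muc1, Muc4, Muc16 and Muc20, the gel-forming mucins Muc5ac and Muc5b, and the goblet cell genes Agr2, Spdef, Gcnt3 and Slc26a9. RNA came from corneas of mice aged 20 weeks that were heterozygous for a Pax6 mutation (3 libraries, M1 to M3) and from WT corneas of the same age (3 libraries, W1 to W3). The labels call the mutant genotype heterozygous and give no allele, strain or sex, and both groups otherwise carry the same description. The comparison asked which mucin transcripts differed between mutant and WT corneas.

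Mucins are large proteins with long runs of serine and threonine that carry dense O-linked sugar chains. On the eye, membrane mucins stand on the apical cells of cornea and conjunctiva and form the glycocalyx that holds the tear film, while goblet cells of the conjunctiva secrete gel-forming mucins, chiefly Muc5ac in the mouse. The cornea itself normally holds no goblet cells, and their appearance on the cornea is a known sign of conjunctival overgrowth in limbal stem cell deficiency. Pax6 is a paired-box transcription factor that the corneal epithelium needs to keep its identity.

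Libraries held 16858005 to 21846406 counts in genes. Pax6, the mutated gene, had 452, 393 and 356 CPM (gene counts scaled to library size with TMM factors) in M1 to M3, against 848, 745 and 771 CPM in W1 to W3, with no overlap. M1 was the only library with high Xist and no Y-linked counts, so M1 was female and the others male, and leaving out M1 gives a comparison of males. W1 stood apart from the other 5 libraries along principal component 1 (50.0% of the variance). Between libraries of 1 genotype the chi-square of gene counts was 17.8 to 53.9 per degree of freedom, so no library repeated another. The series' design text calls the replicates biological, and no label ties a library to an animal.

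Mucin transcripts hold repeated stretches, and these are shown because reads from them can align to more than 1 place and then stand outside the gene counts. Of all 100-base windows in the longest GENCODE M21 transcript, 19.5% recurred within Muc5ac (chromosome 7), 16.0% within Muc5b (chromosome 7), 2.31% within Muc4 (chromosome 16) and 0.466% within Muc16, and no window recurred in Muc1, Muc20 or the 4 goblet cell genes. No window was shared between members. Each transcript was also searched for its commonest stretch of 60 bases, a set length that does not measure the length of a repeat. This stretch was found 11 times in Muc5ac, 5 times in Muc5b and 5 times in Muc4. Its first copy is printed in coding sense, 5′ to 3′, from base 5740 of transcript Muc5ac-202, base 4746 of Muc5b-201 and base 2475 of Muc4-201.
Muc5ac: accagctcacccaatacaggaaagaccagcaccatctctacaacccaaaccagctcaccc
Muc5b: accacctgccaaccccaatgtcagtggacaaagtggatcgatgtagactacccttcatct
Muc4: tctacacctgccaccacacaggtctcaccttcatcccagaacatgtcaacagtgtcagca
In each library, 2.83% to 4.40% of everything tallied in the file stood in the line for reads without a unique alignment.

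The 250 bases before the RefSeq start site are shown for the called members held in the promoter table and for Muc4, the most abundant mucin per length (RefSeq, GRCm38.p6). They are chr3:89228806-89229055 on the plus strand for Muc1, chr16:32735636-32735885 on the plus strand for Muc4, chr9:18674604-18674853 on the minus strand for Muc16, chr12:35992675-35992924 on the plus strand for Agr2 and chr1:131743772-131744021 on the plus strand for Slc26a9. Each is written 5′ to 3′ in the direction of transcription, and capitals mark matches to the motifs named after the sequences.
Muc1: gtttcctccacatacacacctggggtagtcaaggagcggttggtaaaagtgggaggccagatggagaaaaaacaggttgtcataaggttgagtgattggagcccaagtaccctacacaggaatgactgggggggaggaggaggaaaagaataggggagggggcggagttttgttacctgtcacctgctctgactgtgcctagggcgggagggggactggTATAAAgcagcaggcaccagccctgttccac
Muc4: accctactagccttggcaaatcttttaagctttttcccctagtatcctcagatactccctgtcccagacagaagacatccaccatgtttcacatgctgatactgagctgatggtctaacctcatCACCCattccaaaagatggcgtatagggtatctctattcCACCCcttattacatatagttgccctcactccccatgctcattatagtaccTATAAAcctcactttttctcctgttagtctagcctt
Muc16: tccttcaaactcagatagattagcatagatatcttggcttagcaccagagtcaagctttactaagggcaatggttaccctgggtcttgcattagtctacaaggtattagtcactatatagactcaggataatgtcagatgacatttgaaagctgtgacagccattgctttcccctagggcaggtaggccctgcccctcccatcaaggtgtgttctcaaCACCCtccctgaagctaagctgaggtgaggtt
Agr2: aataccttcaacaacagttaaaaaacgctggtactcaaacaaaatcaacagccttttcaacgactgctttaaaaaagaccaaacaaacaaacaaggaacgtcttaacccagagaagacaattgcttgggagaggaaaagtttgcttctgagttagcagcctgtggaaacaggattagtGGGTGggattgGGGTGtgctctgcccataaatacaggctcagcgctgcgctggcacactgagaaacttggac
Slc26a9: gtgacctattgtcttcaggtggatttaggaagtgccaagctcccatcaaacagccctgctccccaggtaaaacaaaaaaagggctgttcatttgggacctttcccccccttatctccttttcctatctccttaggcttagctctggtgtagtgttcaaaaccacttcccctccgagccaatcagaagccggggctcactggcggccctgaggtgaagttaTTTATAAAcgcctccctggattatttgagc
All motifs were searched on both strands, in the 7 members that the table holds. The TATA box, searched as TATAAA, was found in Muc1, Muc4 and Slc26a9, where 2 matches overlap, and in 12.4% of all 32851 promoters of the table. The Klf box, searched as CACCC, was found in Muc4, Muc16, Agr2 and Muc20, and in 52.0% of all promoters. Ets sites were searched only as CGGAA, so the shorter GGAA, which occurs in the Muc1 and Slc26a9 windows, was not counted. CGGAA had no match in the 7 windows and was present in 25.2% of all promoters. The AP-1 site, searched as TGANTCA, had no match either and was present in 6.75%. The forkhead site, searched as TGTTTAC, was found in Muc20 and in 3.17% of all promoters.

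Muc1, Muc16, Muc5ac, Agr2 and Slc26a9 rose in mutant corneas, while Muc4, Muc20 and Muc5b did not pass the test. The rise was 3.76-fold in Muc1, 6.71-fold in Agr2 and 14.8-fold in Muc16, and the larger folds of Muc5ac and Slc26a9 moved by over 1.5 times when single libraries were left out. Only the call of Muc1 held in all 6 fits with a library left out. Agr2 was called in 5 of them, Muc16 in 3, Muc5ac in 2 and Slc26a9 in 1. Of the 10 genes, 8 passed the low-count filter, 5 rose in mutant corneas, 0 fell and 3 did not pass the test (the edgeR quasi-likelihood test, Benjamini-Hochberg adjustment over all 15209 genes tested, adjusted p under 0.05). Over all tested genes 5.59% rose and 4.46% fell. At an unadjusted p under 0.05, 7 members were higher and 0 lower, and 0 were called lower in all 14 alternative analyses, DESeq2 and limma-voom included. All mutant libraries stood above all WT libraries in 6 members, which was so for 17.1% of tested genes. The median log2 fold change (mutant minus WT) of the 8 members was 3.32, against 0.01 over all tested genes. The members were chosen with earlier results of these data known, so their comparisons with all tested genes are descriptions and no test. The filter asks for 3 libraries at 0.556 CPM or more, a level that 1 WT library reached for Muc16 and Slc26a9 and 2 for Agr2, so these 3 genes were testable only with the help of the mutant libraries. In bulk tissue, fewer cells of a type and less RNA per cell cannot be told apart.

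**Figure D1:**
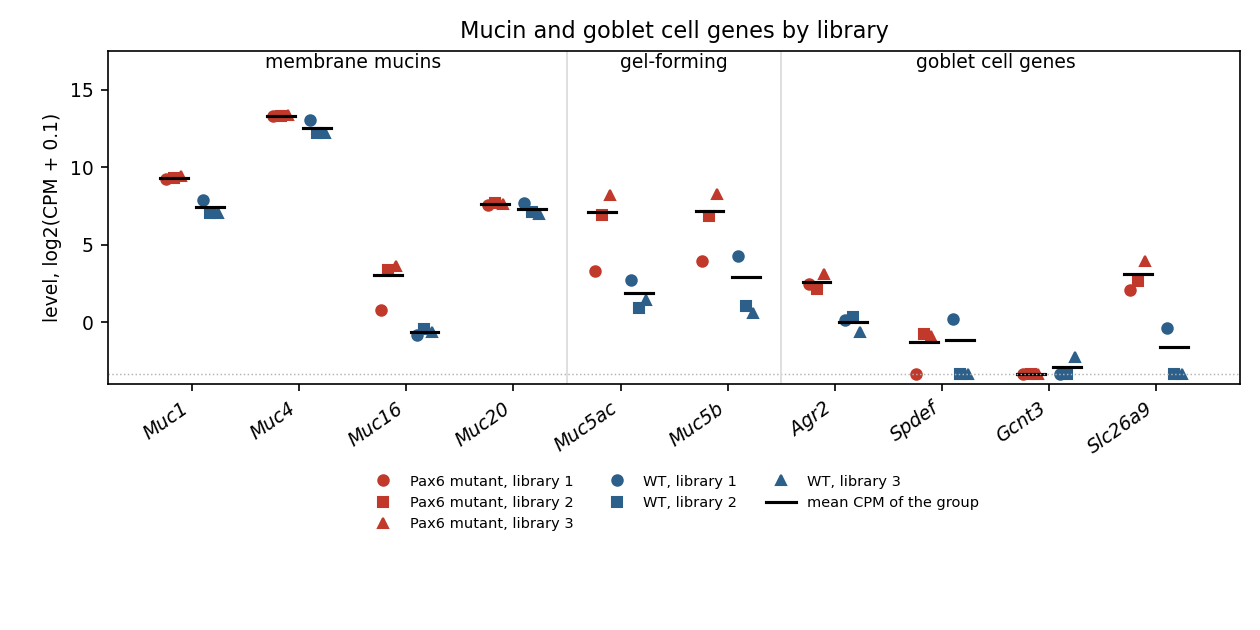
Level of each member in every library on a log2 axis, log2(CPM + 0.1), with mutant libraries in red left of WT libraries in blue and a black line at the mean CPM of the group; the dotted line is a count of 0. Mutant and WT libraries are separate in Muc1, Muc4, Muc16, Muc5ac, Agr2 and Slc26a9 and overlap in Muc20, Muc5b, Spdef and Gcnt3.

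Muc1 (ENSMUSG00000042784, chromosome 3 from 89229057 to 89233381, plus strand, GRCm38) is a small transmembrane mucin of nearly all wet epithelia. It had 589, 630 and 676 CPM in M1 to M3, against 240, 134 and 131 CPM in W1 to W3. All mutant libraries were far above the highest WT library, W1. Muc1 rose 3.76-fold, by 1.91 ± 0.24 on the log2 scale (± SE), with an adjusted p of 0.0028 in edgeR's quasi-likelihood fit. It was called with each library left out in turn (adjusted p 6.4e-05 to 0.017).

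Muc4 (ENSMUSG00000079620, chromosome 16 from 32735886 to 32782391, plus strand), a large transmembrane mucin that can bind the receptor ErbB2, was by far the most abundant member. It had 9900, 10078 and 10416 CPM in M1 to M3, against 8226, 4600 and 4642 CPM in W1 to W3. The mutant libraries were close together and all above WT, and W1 stood well above W2 and W3. The log2 fold change of Muc4 was 0.80 ± 0.25 (SE), and the adjusted p of 0.087 in the edgeR quasi-likelihood fit missed the threshold. Without W1 it was 1.13 with an adjusted p of 0.00022 by the same test (0.00022 to 0.26 over the 6 fits with a library left out), and it was also called by DESeq2, by limma-voom, without composition factors and without the low-count filter.

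Muc20 (ENSMUSG00000035638, chromosome 16 from 32777419 to 32797435, minus strand), a short membrane mucin, had 186, 210 and 200 CPM in M1 to M3, against 202, 139 and 127 CPM in W1 to W3. The groups overlapped, because W1 was above M1 and M3. The log2 fold change of Muc20 was 0.35 ± 0.18 (SE, edgeR quasi-likelihood adjusted p = 0.29). Without W1 it was 0.58, with an adjusted p of 0.011 (0.011 to 0.60 over the 6 fits with a library left out). Muc20 and Muc4 lie tail to tail on opposite strands, and their exons share 627 bases. No source used here gives the strand option of HTSeq, so the counts of Muc20 and Muc4 are uncertain in that stretch.

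Muc16 (ENSMUSG00000109564, chromosome 9 from 18495455 to 18674530, minus strand), the largest membrane mucin and a barrier molecule of the human ocular surface, was scarce. It had 27, 183 and 275 counts in M1 to M3 and 8, 11 and 10 counts in W1 to W3, or 1.65, 10.1 and 12.4 CPM in mutant and 0.453, 0.624 and 0.533 CPM in WT libraries. M1 stood far below M2 and M3, and still above all WT libraries. Muc16 rose 14.8-fold, by 3.89 ± 0.74 on the log2 scale (± SE), with adjusted p = 0.015 in the edgeR quasi-likelihood fit. Without M1, the only female library, the log2 fold change of Muc16 was 4.38 with an adjusted p of 0.0038 by the same test. The low Muc16 level of M1 cannot be told apart from its sex. The call of Muc16 ended without M2 (0.061), M3 (0.076) or W2 (0.057), adjusted p by the same test, and by limma-voom (0.20).

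Muc1 and Muc4 kept a nearly fixed proportion within each genotype. There were 16.8, 16.0 and 15.4 Muc4 counts for each Muc1 count in M1 to M3, against 34.3, 34.4 and 35.4 in W1 to W3. The log2 ratio of Muc1 to Muc4 was -4.01 ± 0.06 in mutant and -5.12 ± 0.03 in WT libraries (SD, n = 3 each), a 2.16-fold difference. Its two-sided exact permutation p was 0.10, the smallest that 3 libraries against 3 allow. W1, which had 1.79 times the Muc4 CPM of W2 and 1.83 times the Muc1 CPM of W3, did not stand apart in this ratio. The ratio does not depend on how libraries are scaled, and it was examined after the values were seen. For Muc20 there were 53.2, 48.1 and 52.0 Muc4 counts for each Muc20 count in M1 to M3, against 40.8, 33.1 and 36.5 in W1 to W3 (two-sided exact permutation p = 0.10, again the smallest possible). This ratio was also examined after the values were seen, and it includes the 627 shared exon bases whose counts are uncertain.

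**Figure D2:**
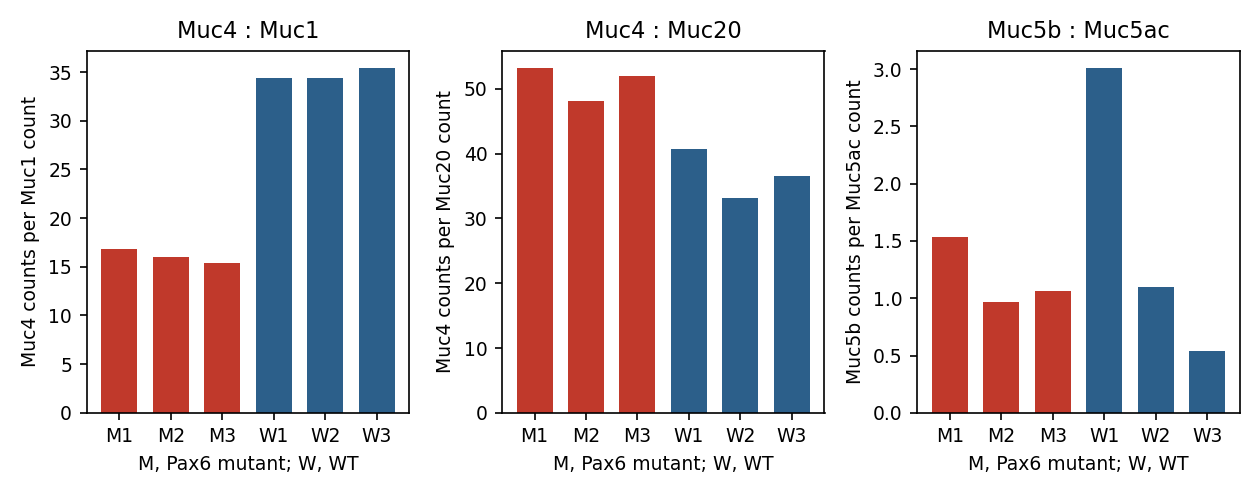
Ratios of raw counts within each library, as bars from 0, with mutant libraries (M) in red and WT libraries (W) in blue. Muc4 per Muc1 is 15.4 to 16.8 in mutant and 34.3 to 35.4 in WT libraries, and Muc5b per Muc5ac is 0.968 to 1.53 in mutant and 0.542 to 3.01 in WT libraries.

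Per kilobase of annotated exon, the order in mutant corneas was Muc4 (862 ± 22.3 CPM per kb), Muc1 (269 ± 18.7), Muc20 (49.3 ± 2.95), Muc5ac (12.9 ± 13.0), Muc5b (9.71 ± 9.87), Agr2 (4.68 ± 1.61), Slc26a9 (1.62 ± 1.11), Muc16 (0.305 ± 0.215) and Spdef (0.137 ± 0.119, SD, n = 3), with Gcnt3 at 0. In WT corneas the order was Muc4 (495 ± 177 CPM per kb), Muc1 (71.7 ± 26.4), Muc20 (38.7 ± 9.97), Agr2 (0.694 ± 0.247), Muc5b (0.504 ± 0.679), Muc5ac (0.334 ± 0.229), Spdef (0.156 ± 0.270), Slc26a9 (0.0434 ± 0.0751), Muc16 (0.0204 ± 0.00323) and Gcnt3 (0.00826 ± 0.0143, SD, n = 3). In mutant corneas the ranges over the 3 libraries overlapped between neighbours from Muc5ac to Agr2 and from Muc16 to Gcnt3, and were separate between the other neighbours. In WT corneas they were separate from Muc4 down to Agr2 and overlapped between all neighbours from Agr2 to Gcnt3. Of the level of the 6 mucins per kilobase, Muc1 made up 22.4 ± 0.343% in mutant and 11.8 ± 0.193% in WT corneas, and Muc4 71.7 ± 2.06% and 81.6 ± 0.519%, in the same order (SD, n = 3 each). The gel-forming mucins made up 0.168%, 1.57% and 3.71% in M1 to M3, against 0.221%, 0.0624% and 0.0685% in W1 to W3.

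The gel-forming mucins were higher in mutant corneas on average, with a very wide spread between the mutant libraries. Muc5ac (ENSMUSG00000037974, chromosome 7 from 141788972 to 141819231, plus strand), the main gel-forming mucin of conjunctival goblet cells, had 9.83, 119 and 288 CPM in M1 to M3, against 6.40, 1.81 and 2.56 CPM in W1 to W3. All mutant libraries were above WT, but M1 only slightly so, and the highest mutant library had 29.3 times the lowest. Muc5ac rose 38.7-fold, by 5.27 ± 1.11 on the log2 scale (± SE, edgeR quasi-likelihood adjusted p = 0.022). The log2 fold change of Muc5ac was 4.17 without M3 and 5.98 without W1. Without M1, the only female library, it was 5.83 with an adjusted p of 0.0050 by the same test. The low Muc5ac level of M1 cannot be told apart from its sex. The call of Muc5ac ended without M2 (0.063), M3 (0.073), W2 (0.088) or W3 (0.070), adjusted p by the same test, and by limma-voom (0.25).

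Muc5b (ENSMUSG00000066108, chromosome 7 from 141839070 to 141873084, plus strand), a gel-forming mucin of airways and glands that is the next gene of the same mucin cluster, had 15.1, 115 and 306 CPM in M1 to M3, against 19.3, 1.98 and 1.39 CPM in W1 to W3. The groups overlapped, because W1 was above M1. The log2 fold change of Muc5b was 4.27 ± 1.25 (SE), and its adjusted p of 0.071 in the edgeR quasi-likelihood fit missed the threshold. It was 3.11 without M3. Without W1 it was 6.43 with an adjusted p of 0.014 (0.014 to 0.24 over the 6 fits with a library left out), and DESeq2 also called it (0.020). Within libraries there were 1.53, 0.968 and 1.06 Muc5b counts for each Muc5ac count in M1 to M3, against 3.01, 1.09 and 0.542 in W1 to W3. The ratio of Muc5b to Muc5ac did not separate the genotypes.

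The summed level of both gel-forming mucins was 24.9, 234 and 593 CPM in M1 to M3, against 25.7, 3.80 and 3.95 CPM in W1 to W3. The membrane mucins summed to 10676, 10928 and 11305 CPM in M1 to M3, against 8668, 4873 and 4901 CPM in W1 to W3. The coefficient of variation between mutant libraries was 101% for Muc5ac and 102% for Muc5b, against 2.59% for Muc4 and 6.93% for Muc1. Its median was 11.8% over the 9334 tested genes with at least 5 CPM in both groups. In WT libraries it was 68.6% for Muc5ac and 135% for Muc5b, against a median of 15.6%.

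Among the goblet cell genes, Agr2 (ENSMUSG00000020581, chromosome 12 from 35992907 to 36004087, plus strand), a protein disulphide isomerase of the endoplasmic reticulum that mucin folding needs in the mouse intestine, had 88, 79 and 186 counts in M1 to M3 and 18, 20 and 10 counts in W1 to W3. This was 5.37, 4.38 and 8.36 CPM in mutant libraries, against 1.02, 1.13 and 0.533 CPM in WT libraries. The groups were well apart and M1 did not fall behind M2. Agr2 rose 6.71-fold, by 2.75 ± 0.48 on the log2 scale (± SE, edgeR quasi-likelihood adjusted p = 0.011). Its call ended without M3 (0.078), and held with each of the other 5 libraries left out.

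Slc26a9 (ENSMUSG00000042268, chromosome 1 from 131744022 to 131771504, plus strand), a chloride transporter of airway and stomach epithelium, had 67, 114 and 335 counts in M1 to M3 and 12, 0 and 0 counts in W1 to W3. This was 4.09, 6.32 and 15.1 CPM in mutant libraries, against 0.680, 0 and 0 CPM in WT libraries. Within WT it was counted only in W1. Slc26a9 rose by 5.20 ± 1.22 on the log2 scale (± SE, edgeR quasi-likelihood adjusted p = 0.033). The log2 fold change of Slc26a9 was 4.49 without M3 and 4.60 without W3. The call of Slc26a9 ended without M1 (0.071), M2 (0.094), M3 (0.16), W2 (0.082) or W3 (0.055), adjusted p by the same test, and by limma-voom (0.094).

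Spdef (ENSMUSG00000024215, chromosome 17 from 27714352 to 27728955, minus strand), the Ets factor that drives goblet cell formation in the mouse conjunctiva and gut, had 0, 9 and 10 counts in M1 to M3 and 19, 0 and 0 counts in W1 to W3, under the filter. As with Slc26a9, W1 was the only WT library with counts. Gcnt3 (ENSMUSG00000032226, chromosome 9 from 70031496 to 70038088, minus strand), which builds the branched core of mucin sugar chains, had 0 counts in every mutant library and 0, 0 and 2 counts in W1 to W3. A count of 0 over the 3 mutant libraries allows 3 counts, or 0.0529 CPM, counting error only. In the fit without the low-count filter the log2 fold change was -0.15 for Spdef and -2.65 for Gcnt3. Their adjusted p was 0.98 and 0.59 by edgeR's quasi-likelihood test. The SE on the log2 scale was 1.54 for Spdef and 2.29 for Gcnt3 in that fit. Even a difference of several fold in Spdef or Gcnt3 was not detectable at these counts.

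**Figure D3:**
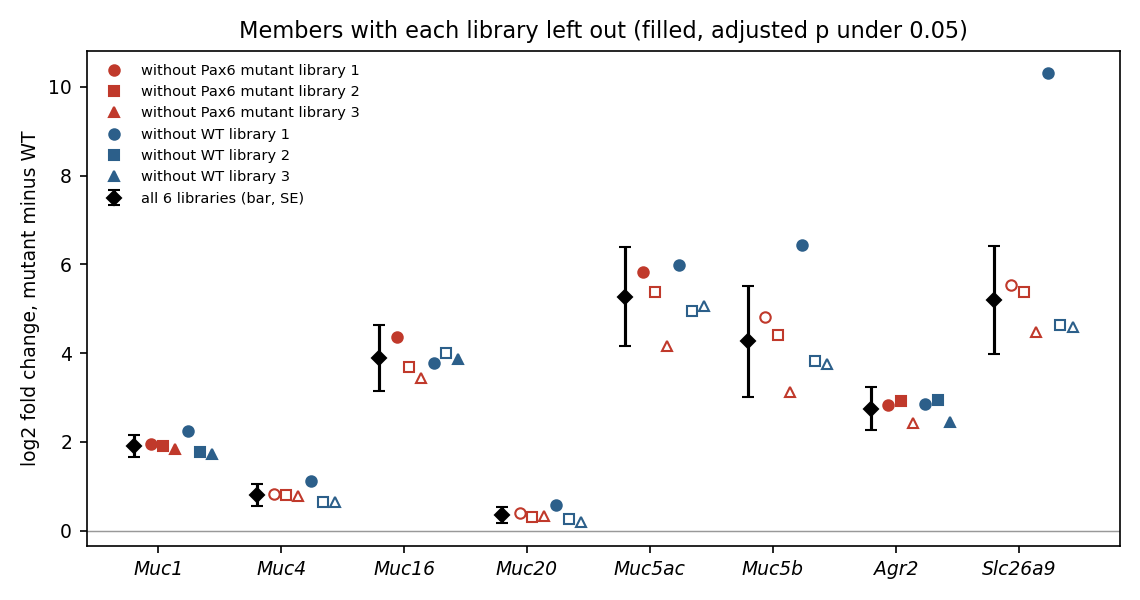
Log2 fold change (mutant minus WT) of the 8 tested members with all libraries (diamonds, bar = SE) and with each library left out (red, a mutant library; blue, a WT library; filled where adjusted p is under 0.05). Muc1 is filled throughout, and all 8 members are filled without W1; the Slc26a9 value without W1 is fitted against WT libraries with 0 counts and is no measure of size.

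Without W1 all 8 tested members were called higher, against 5 with all libraries. Without M3 the only call was Muc1, and without M2 or W2 the count was 2. Each of these fits has fewer libraries, and the part of that in the lost calls was not tested. Calls over all genes moved as well. Without W1, 1227 of 16046 tested genes were called higher, against 850 of 15209 with all libraries. The count was 340 of 15909 without M3, 455 of 15917 without M2 and 574 of 16044 without W2.

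Few of the other goblet cell genes were measurable, and Clca1 alone passed the test. Of 15 further genes of goblet cells 5 were tested, 1 rose and 0 fell (2 higher and 2 lower at an unadjusted p under 0.05; DESeq2 called 2 higher and 0 lower), with a median log2 fold change of -0.21. Clca1, a secreted goblet cell protein, had 15, 10 and 18 counts in M1 to M3 and 0, 1 and 0 counts in W1 to W3 (edgeR quasi-likelihood adjusted p = 0.040), a call that ended with each library left out in turn (0.067 to 0.17). No WT library reached the filter's level for Clca1. Fcgbp, a secreted partner of mucins, was at 67.5 ± 23.1 CPM in mutant and 110 ± 34.9 CPM in WT corneas (SD, n = 3 each, not called). The trefoil peptide Tff1 had 1, 2 and 11 counts in M1 to M3 and 0, 1 and 0 counts in W1 to W3, Tff2 was counted only in M3 (10 counts), and Tff3 had 0 counts in all 6 libraries. Zg16, Spink4 and Atoh1 also had 0 counts in all libraries.

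Of the 13 other mucins and mucin-like genes, 5 were tested, 2 fell and 0 rose by the edgeR quasi-likelihood test (0 higher at an unadjusted p under 0.05, and 0 by DESeq2 and limma-voom). Muc15, a membrane mucin, had 34.6, 39.4 and 35.4 CPM in M1 to M3, against 79.9, 108 and 92.1 CPM in W1 to W3. Muc15 fell 2.56-fold with no overlap (log2 fold change -1.35 ± 0.14, SE, edgeR quasi-likelihood adjusted p = 0.0014), in the opposite direction to Muc1, and was called with each library left out. Cd164, a sialomucin of the endolysosomal and cell surface membrane, fell 1.53-fold to 184 ± 30.0 CPM in mutant, against 282 ± 28.5 CPM in WT corneas (SD, n = 3 each, edgeR quasi-likelihood adjusted p = 0.038; 0.043 to 0.15 with a library left out). Muc2, a gel-forming mucin of the gut in the same cluster as Muc5ac, had 5, 5 and 1 counts in M1 to M3 and 14, 7 and 5 counts in W1 to W3. Muc3, Muc19 and Mucl1 had 0 counts in all libraries. Of the 3569 exon bases of Muc15, 61 overlap Ano3 on the opposite strand, and its counts are uncertain in that stretch.

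The enzymes that build mucin sugar chains changed in both directions. Of 26 such genes 19 were tested, 4 rose and 2 fell, with a median log2 fold change of 0.19. Galnt12, which attaches the initial sugar to serine or threonine, had 34.1, 41.4 and 44.1 CPM in M1 to M3, against 10.1, 10.5 and 8.64 CPM in W1 to W3. It rose 4.08-fold (edgeR quasi-likelihood adjusted p = 0.00065). Galnt4, of the same enzyme family, had 85.0, 97.4 and 104 CPM in M1 to M3, against 218, 196 and 200 CPM in W1 to W3. It fell 2.15-fold (adjusted p = 0.0016, same test). The sialyltransferase St3gal1 rose 3.32-fold to 52.2 ± 13.2 CPM in mutant, against 15.7 ± 2.24 CPM in WT corneas (SD, n = 3 each), while St6galnac1, which adds sialic acid to the initial sugar, fell 1.73-fold to 228 ± 19.4 CPM in mutant, against 394 ± 28.8 CPM in WT corneas. Galnt12, Galnt4 and St3gal1 were called with each library left out, and St6galnac1 with 5 of 6 (adjusted p = 0.0502 without M3). Galnt10 and St3gal4, which also rose, fall outside the rule for named genes and are given to complete the count, with their values known. The exons of Galnt4 overlap those of Poc1b on its own strand, and its counts are uncertain in that stretch, as are those of St3gal4.

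**Figure D4:**
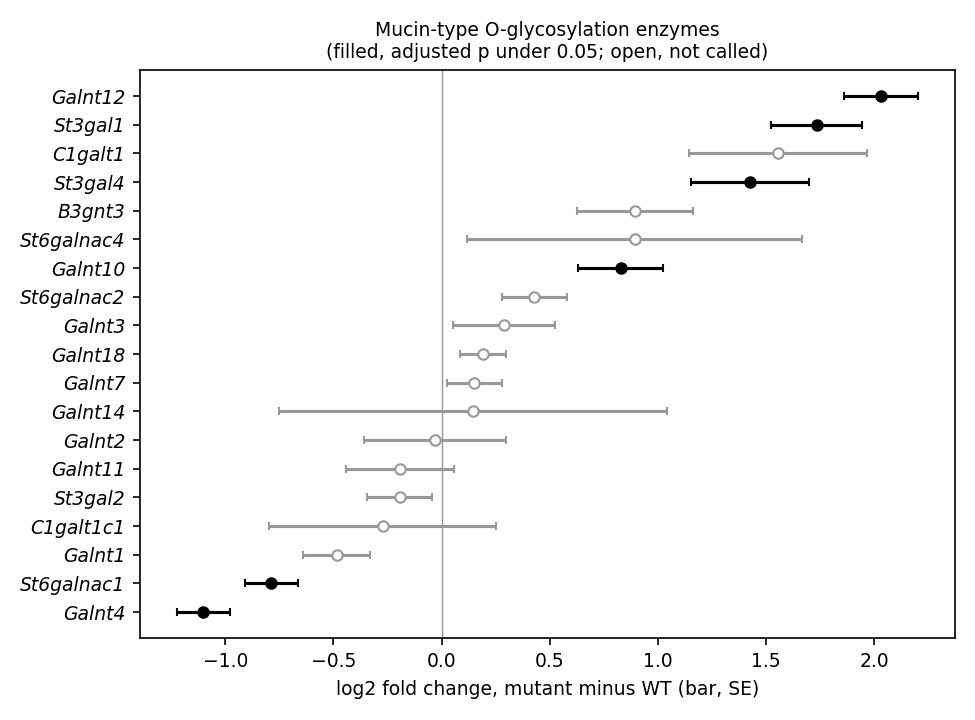
Log2 fold change (mutant minus WT, bar = SE) of the 19 tested enzymes of mucin-type O-glycosylation, filled where adjusted p is under 0.05. Galnt12, St3gal1, St3gal4 and Galnt10 lie to the right of 0 and St6galnac1 and Galnt4 to the left, and the other 13 were not called.

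Of 11 regulators of goblet cell formation 8 were tested, 2 rose and 0 fell by the edgeR quasi-likelihood test (1 lower at an unadjusted p under 0.05, and 1 by DESeq2). Foxa1, a forkhead factor of secretory epithelia, rose 2.64-fold to 12.3 ± 2.64 CPM in mutant, against 4.67 ± 1.90 CPM in WT corneas (SD, n = 3 each, edgeR quasi-likelihood adjusted p = 0.040; 0.0070 to 0.17 with a library left out). Il13ra1, a receptor chain for the goblet cell cytokine interleukin-13, rose 1.86-fold to 34.1 ± 7.88 CPM in mutant, against 18.3 ± 0.981 CPM in WT corneas (adjusted p = 0.026; 0.012 to 0.13 with a library left out). Il13 and Il4 had 0 counts in all 6 libraries. Klf4, a factor that the mouse conjunctiva needs to form goblet cells, was at 716 ± 97.8 CPM in mutant and 1215 ± 361 CPM in WT corneas (SD, n = 3 each, not called, adjusted p = 0.066).

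Chloride and bicarbonate transporters accompany mucin secretion, since the gel swells in bicarbonate-rich fluid. Of 8 chloride and bicarbonate transporters 7 were tested, 2 rose and 1 fell, with a median log2 fold change of 1.20. Cftr, the chloride and bicarbonate channel of secretory epithelia, had 18.5, 18.5 and 21.8 CPM in M1 to M3, against 1.81, 1.30 and 1.92 CPM in W1 to W3. It rose 11.6-fold (edgeR quasi-likelihood adjusted p = 0.00057) and was called with each library left out, and its mutant libraries did not show the spread of Muc5ac. Slc26a4, the anion exchanger pendrin, had 12.6, 14.1 and 27.3 CPM in M1 to M3, against 0.794, 3.00 and 2.88 CPM in W1 to W3, and rose 8.06-fold (adjusted p = 0.011; the call ended without M3, at 0.059). Slc12a2, which loads chloride into secretory cells, fell 1.41-fold to 525 ± 31.3 CPM in mutant, against 743 ± 64.2 CPM in WT corneas (adjusted p = 0.042; 0.022 to 0.19 with a library left out). The exons of Cftr overlap an antisense gene, which makes its counts uncertain there. Of 5 partners and sheddases of membrane mucins 4 were tested and 0 were called by the edgeR quasi-likelihood test (1 higher and 1 lower at an unadjusted p under 0.05, and as many by DESeq2), among them the glycocalyx lectin Lgals3 at 185 ± 8.33 CPM in mutant and 169 ± 37.8 CPM in WT corneas (SD, n = 3 each).

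Markers of other cell types also differed between the genotypes. Of 6 keratins of conjunctival or simple epithelium 4 rose and 0 fell, and their summed level was 6086 to 7615 CPM in mutant and 369 to 670 CPM in WT libraries. The summed level of 6 corneal epithelial genes was 10465 to 16242 CPM in mutant and 28783 to 38767 CPM in WT libraries, with 5 of 6 lower, and that of 8 leukocyte genes was 182 to 218 CPM in mutant and 42.3 to 67.1 CPM in WT libraries, with 6 of 8 higher. Of these 6, Itgax and Cd4 reached the filter's level in no WT library, and their calls held in 2 and 1 of the 6 fits with a library left out. Itgam was the largest part of the leukocyte sum, at a mean of 91.9 CPM in mutant and 30.8 CPM in WT corneas. Its exons share 3450 of 5024 bases with Gm49368 on the same strand, and its counts are uncertain in that stretch. The part of these cell types in the mucin differences was not tested. Of the meibomian gland markers Awat1 and Elovl3 had 0 counts in all libraries and the list summed to 4.21 to 9.39 CPM in mutant and 0.373 to 1.13 CPM in WT libraries. Nearly all of that sum in mutant corneas was Cidea, a lipid droplet protein that other cells also make, at a mean of 5.62 CPM in mutant and 0.484 CPM in WT corneas. The lacrimal gland markers summed to 0.719 to 3.66 CPM in mutant and 0 to 0.624 CPM in WT libraries, with Dcpp1 at 0 throughout and Bhlha15 the largest part in mutant corneas, and the epidermis markers to 5.03 to 9.09 CPM in mutant and 6.24 to 11.4 CPM in WT libraries. No gene of these last 3 lists was called by the edgeR quasi-likelihood test (2 higher and 0 lower at an unadjusted p under 0.05, and 1 higher by DESeq2).

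Krt4 and Krt13 did not follow the spread of the gel-forming mucins. Krt4, a keratin of the stratified conjunctiva, was at 2514, 1430 and 1837 CPM in M1 to M3, against 38.3, 159 and 125 CPM in W1 to W3. Krt13, of the same kind of epithelium, was at 4088, 3836 and 4010 CPM in M1 to M3, against 174, 238 and 175 CPM in W1 to W3. M1, the mutant library with the least Muc5ac and Muc5b, had the most Krt4, and W1, the WT library with the most Muc5ac and Muc5b, had the least Krt4. Krt18 and Krt19 rose from M1 to M3, as Muc5ac did, at 15.8, 17.9 and 21.6 CPM and at 564, 587 and 659 CPM. Their highest mutant library had 1.36 and 1.17 times the lowest. Krt7 and Krt8 were lowest in M2 among mutant libraries. Among WT libraries Krt7, Krt8, Krt18 and Krt19 were all lowest in W1. For every 1000 Krt4 counts there were 3.91, 83.1 and 157 Muc5ac counts in M1 to M3, against 167, 11.4 and 20.5 in W1 to W3, so that this ratio did not separate the genotypes.

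**Figure D5:**
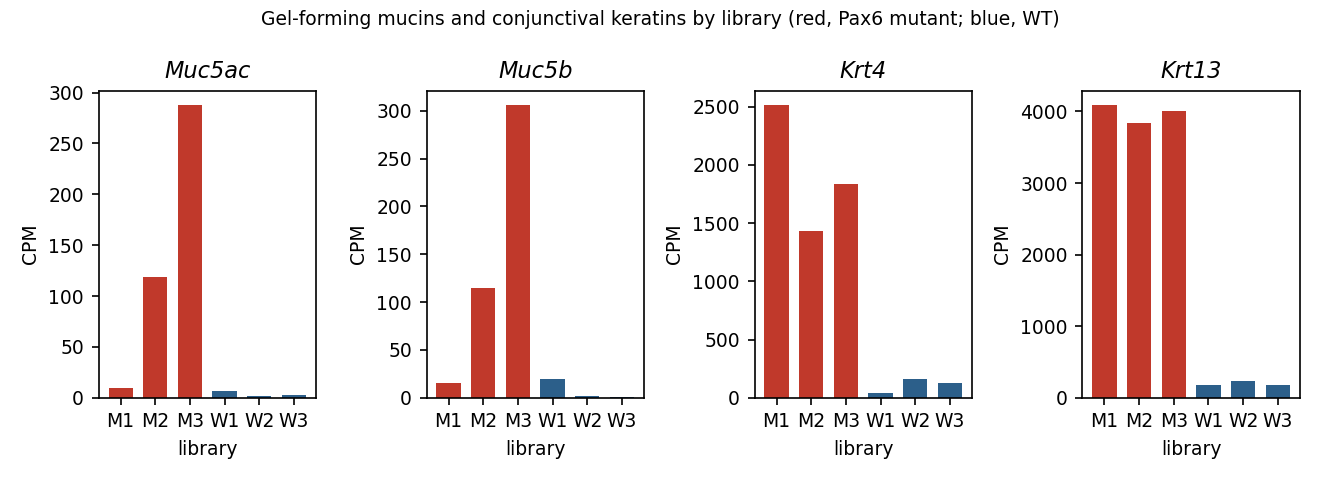
CPM of Muc5ac, Muc5b, Krt4 and Krt13 in every library, as bars from 0 with a scale for each gene, mutant libraries in red left of WT libraries in blue. Muc5ac and Muc5b are low in M1 and high in M3, whereas Krt13 is at 3836 to 4088 CPM in all 3 mutant libraries.

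By Pearson correlation of log2 CPM over the 6 libraries, among 12549 protein-coding genes with a mean of at least 1 CPM, the genes most like Muc5ac were Frk (0.991), Col6a4 (0.990) and Hyou1 (0.987), and those most like Muc16 were Mmgt2 (0.997), Ubxn2a (0.997) and Cystm1 (0.992). The values describe 6 libraries in 2 genotype groups, all measured with the same assay. They are the highest of 12549 correlations over only 6 libraries, and whether unrelated genes would reach them was not tested. Hyou1, a chaperone of the endoplasmic reticulum, had 97.2, 122 and 132 CPM in M1 to M3, against 100, 87.9 and 85.5 CPM in W1 to W3. None of these 6 genes passed the test (adjusted p 0.051 to 0.23, the edgeR quasi-likelihood test).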

How the data were processed

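Libraries were made from total RNA of corneas with a stranded kit for small RNA amounts and read in pairs of 100 nucleotides, per the labels' protocols. The submitters' processing notes name GRCm38 and, without roles, edgeR, HTSeq, SAMtools, HISAT2 and Trim Galore; no source used here gives their versions or the strand option. The authors deposited raw counts per Ensembl gene, 1 file per library, without normalization; the 5 summary lines of each file were left out (0.679% of everything tallied was ambiguous, 2.75% of low alignment quality, 3.50% without a unique alignment, 16.3% outside features and 30.1% unaligned).

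Symbols, exons and positions came from GENCODE M21 (GRCm38), which held 55240 of 55421 IDs. In R 4.3.3, edgeR 4.0.16 was run with filterByExpr (minimum count 10, minimum total 15), TMM factors and the quasi-likelihood test with genotype as the only term, with Benjamini-Hochberg adjustment over 15209 genes. CPM are counts over library total times TMM factor. The SE is the log2 fold change over the root of the test's F. The depth of 16858005 to 21846406 gene counts puts 3 counts in 1 library at 0.135 to 0.183 CPM; such floors cover counting error only. Alternatives were other scalings, filters, DESeq2 1.42.0, limma-voom (limma 3.58.1) and leaving out each library. The fit was tested on simulated data.

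The members and lists were chosen with earlier results of these data known. Named genes are all members, up to 4 called genes of each other list with the smallest p, and called genes that moved against their list, and the 3 genes most correlated with each of Muc5ac and Muc16; uncalled list genes (Fcgbp, Tff1, Tff2, Muc2, Klf4 and Lgals3, and those at 0) were picked with their values known. Sequences are from RefSeq and GENCODE. Replicate numbers of the libraries only follow accession order.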

Additional observations from a re-analysis of the deposited data

How the results depend on the processing

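No paired analysis was possible because the labels give the groups no shared replicate numbers. All 8 tested members kept the sign of their fold change in the 14 alternatives. RLE and upper-quartile scaling, removal of mitochondrial and structural RNA genes and a filter of 1 CPM in 3 libraries changed no member's call. Members called higher were 3 by limma-voom, 7 by DESeq2, 7 without a low-count filter and 6 without composition factors. Of 15209 tested genes, limma-voom called 906 higher and 718 lower, and the fit without composition factors 849 and 703. DESeq2 called 1325 genes higher and 1033 lower, and the fit without a low-count filter called 1588 higher and 1137 lower, with 30 other list genes higher. Without that filter the adjusted p of Muc5ac was 1.4e-148 by edgeR's quasi-likelihood test, far below the 0.022 of the filtered fit, and the cause was not tested. With a library left out, 340 to 1227 genes were called higher and 271 to 847 lower (340 and 271 without M3, 1227 and 847 without W1), with 1 to 8 members higher and 0 lower, and 12 to 22 other list genes higher and 6 to 13 lower. Without composition factors the summed CPM of the member classes and the gel-forming share moved by less than the SD between libraries. Leaving out 1 of 3 libraries cannot move a group mean by that SD, so those fits are given by their values only. The gel-forming sum in mutant corneas was 284 CPM with all libraries, 129 CPM without M3 and 414 CPM without M1. In WT corneas it was 11.1 CPM with all libraries and 3.87 CPM without W1. Counts under about 10 in a library, as for Spdef, Gcnt3 and the trefoil genes, limit what can be seen at this depth.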
